A study of Mus musculus with 10 samples.

Results

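Cell cycle and proliferation genes were examined in the retinal pigment epithelium (RPE) of mice whose RPE was given extra Nrf2. The set was a list of 39 genes picked by name for their roles in division and arrest, out of 47729 genes in the count table. Of these, 38 had enough reads to be tested, among 16362 tested genes in all.

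The animals were wild-type CD1 mice at P40 of an outbred strain. In each of 5 mice, 1 eye had received an adeno-associated virus (AAV) carrying human Nrf2 together with an AAV carrying GFP, and the other eye had received the GFP virus alone, so that both groups had GFP and differed in the added Nrf2 virus and in total virus dose. Both genes were driven by the human Best1 promoter, which is active in the RPE. Polyadenylated RNA released from the eyecup after the retina was taken off gave 10 libraries, 5 from Nrf2 eyes and 5 from GFP control eyes of the same mice, and cells other than RPE that stay on the eyecup were not separated.

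The Nrf2 protein binds antioxidant response elements and raises the transcription of antioxidant defence genes. Cells enter division when D-type cyclins with Cdk4 and Cdk6, and then E-type cyclins with Cdk2, inactivate the retinoblastoma protein and free E2F factors, which turn on genes for DNA replication; a later wave of genes, read from promoters with CCAAT boxes and a cell cycle genes homology region (CHR), drives mitosis. The kinase inhibitors of the Cdkn1 and Cdkn2 families and the p53 pathway stop this sequence, and the adult RPE is a tissue of cells that normally have left the cycle.

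Promoters of mitotic and replication genes are shown first, because the waves they belong to are known for shared motifs. RefSeq gave a promoter window of 300 bases, most of it upstream of the start, on the build GRCm38.p6, for 31 of the 39 genes. Some genes had a window at each of 2 starts, among them Cdkn1a, and a motif in either was counted. Capitals mark the motifs searched on both strands: the CCAAT box, which reads ATTGG where it lies on the other strand, the E2F motif TTTNNCGC, the CHR motif in its form TTTGAA or with a central C as TTCGAA, and the antioxidant response element core TGACNNNGC; capitals of overlapping motifs run together. The windows printed were chosen after the values were seen, as examples of a cyclin, a kinase and a topoisomerase of mitosis, a helicase subunit of replication, and an inhibitor of the cycle, and they lie at chr9:70421505-70421804 (minus strand), chr10:69352863-69353162 (minus), chr11:99024140-99024439 (minus), chr1:128359656-128359955 (minus) and chr17:29093519-29093818 (plus), in that order. Each is written 5′ to 3′ on the strand of its gene. The other window of Cdkn1a, at chr17:29090729-29091028, held none of the motifs.
Ccnb2: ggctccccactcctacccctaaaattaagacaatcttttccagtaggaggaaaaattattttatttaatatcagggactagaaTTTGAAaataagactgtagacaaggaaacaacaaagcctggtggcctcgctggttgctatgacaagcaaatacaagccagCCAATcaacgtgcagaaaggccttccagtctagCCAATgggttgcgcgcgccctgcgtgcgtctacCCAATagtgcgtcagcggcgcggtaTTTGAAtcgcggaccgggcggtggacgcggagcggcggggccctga
Cdk1: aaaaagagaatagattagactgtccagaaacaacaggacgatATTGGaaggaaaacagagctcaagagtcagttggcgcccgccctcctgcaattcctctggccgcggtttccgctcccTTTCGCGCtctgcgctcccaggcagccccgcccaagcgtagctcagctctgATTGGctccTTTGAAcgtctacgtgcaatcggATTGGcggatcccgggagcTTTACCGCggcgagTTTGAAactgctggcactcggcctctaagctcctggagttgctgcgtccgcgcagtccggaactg
Top2a: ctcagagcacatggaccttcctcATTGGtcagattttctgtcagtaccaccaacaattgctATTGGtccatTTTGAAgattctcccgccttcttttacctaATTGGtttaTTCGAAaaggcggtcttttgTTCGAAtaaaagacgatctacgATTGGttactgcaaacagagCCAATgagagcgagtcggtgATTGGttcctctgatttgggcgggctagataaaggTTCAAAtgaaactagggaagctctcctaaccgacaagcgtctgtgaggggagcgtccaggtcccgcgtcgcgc
Mcm6: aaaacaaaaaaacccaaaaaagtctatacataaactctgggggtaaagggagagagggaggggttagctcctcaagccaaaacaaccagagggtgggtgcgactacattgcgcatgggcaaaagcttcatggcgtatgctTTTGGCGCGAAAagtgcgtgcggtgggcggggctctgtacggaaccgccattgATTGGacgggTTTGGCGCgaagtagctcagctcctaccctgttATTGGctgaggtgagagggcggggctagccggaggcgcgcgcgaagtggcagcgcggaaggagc
Cdkn1a: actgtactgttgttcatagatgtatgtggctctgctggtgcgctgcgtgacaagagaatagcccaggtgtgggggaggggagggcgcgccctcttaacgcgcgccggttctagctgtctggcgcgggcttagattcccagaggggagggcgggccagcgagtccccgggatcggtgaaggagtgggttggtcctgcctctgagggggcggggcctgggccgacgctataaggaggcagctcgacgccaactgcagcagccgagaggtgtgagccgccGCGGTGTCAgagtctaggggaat

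A CHR motif of either form was found in 7 of 9 mitotic genes with a window (77.8%), namely Aurka, Bub1, Ccnb2, Cdk1, Mki67, Plk1 and Top2a, against 21.7% of the 27025 genes with a window. All 7 also held a CCAAT box, a pair of motifs that 8.61% of all genes had. The E2F motif was found in 5 of 9 replication genes (55.6%), Mcm3, Mcm5, Mcm6, Mcm7 and Tyms, against 5.93% of all genes. The antioxidant response element core was found in 10 of the 31 members (32.3%) and in 14% of all genes; the 10 were Bub1, Ccnb1, Ccnd3, Cdk4, Cdkn1a, Cdkn1b, Cdkn2a, Pcna, Rrm2 and Trp53. These letter matches describe the windows and do not show binding.

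The libraries held 12298404 to 27310638 counts. Levels are given as CPM (counts of a gene scaled to the size of its library) after scaling the libraries by the trimmed mean method of edgeR. The groups were compared with edgeR's quasi-likelihood test, in which each mouse formed a block, and a gene was called changed at a Benjamini-Hochberg adjusted p under 0.05 over all genes tested. By this rule 1036 of 16362 genes (6.33%) were called, 589 higher (3.6%) and 447 lower (2.73%) in the Nrf2 eyes, and the median log2 difference of all genes was -0.01. The summed CPM of 12 RPE markers was 23562 to 43012 in the control eyes and 11896 to 32472 in the Nrf2 eyes, with 5 markers called lower (Rpe65, Rlbp1, Rgr, Lrat and Otx2) and 0 higher. Of the 12, 5 had log2 differences above 0 and 7 below 0, with a median of -0.145. The largest above 0 were Tyr at 0.88 and Best1 at 0.70, neither called. By these sums RPE transcripts were abundant in all libraries, except that Best1, the gene whose promoter drove the viruses, averaged 0.771 CPM in controls. The summed CPM of 13 rod markers spread from 162.4 to 21539 across the control libraries. The summed CPM of 6 T cell markers was low, at 1.14 to 3.14 in the control eyes and 2.01 to 16.2 in the Nrf2 eyes, and was higher in the Nrf2 eye of 5 of 5 mice; edgeR tested 1 of the 6, Cd3d, and did not call it, and DESeq2 called Cd3e higher. What part T cells had in the levels of division genes was not tested.

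No member was called changed. The edgeR test called 0 of 38 members, as did limma, a linear model of log counts, which called 6.85% of all genes; 4 of 38 members (10.5%) had an unadjusted edgeR p under 0.05 against 19.1% of all genes, and DESeq2 called 4 members, Cdkn1a and Cdkn2b higher and Ccnd3 and Cdk1 lower, with 9.08% of all genes called. The CPM of the Nrf2 and control eyes overlapped in all 38 members, whereas 6.15% of all genes did not overlap. The median log2 difference of the members was -0.07, with 12 members above 0 and 26 below 0, and single members lay between -0.53 (Cdk1) and 0.92 (Cdkn2b). The sign of this median rested on single mice: it was 0.022, 0.015 and 0.069 without mouse 2, 3 or 5, with 20, 22 and 22 members above 0, and -0.18 and -0.17 without mouse 1 or 4, with 11 and 8 above 0. Positive differences mean a higher level in the Nrf2 eyes throughout.

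The absence of a call bounds some members closely and others loosely. The 95% interval of the difference from limma stayed within 1 log2 unit, a 2-fold change, on both sides for 33 of 38 members, and for 69.6% of all genes. All 8 G1 cyclins and kinases, all 10 replication genes and the 4 genes of the p53, RB and E2F group were within that range. Of the 11 mitotic genes 8 were, and none of the mitotic genes had an interval within 1.5-fold. The 5 members whose interval reached past a 2-fold change were Cdkn1a, Cdkn2b, Bub1, Birc5 and Plk1.

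**Figure D1:**
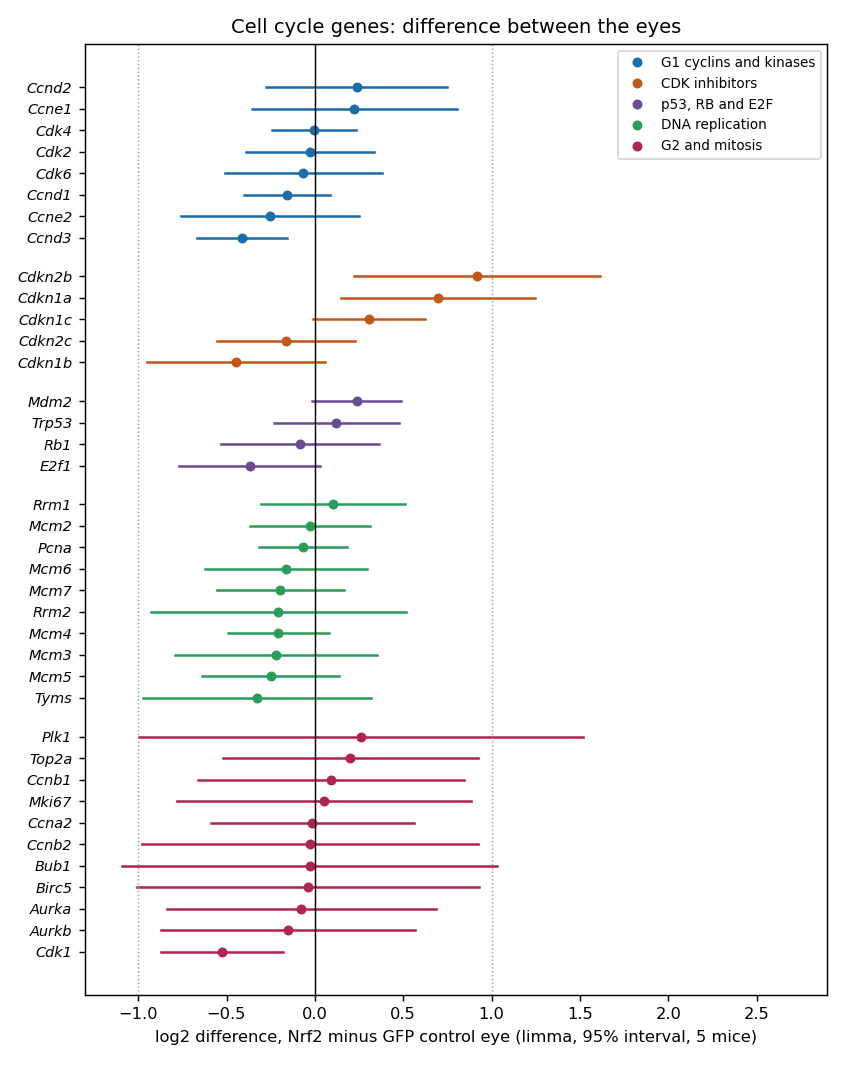
The horizontal axis is the limma log2 difference between Nrf2 and GFP control eyes, with a point for the estimate and a line for its 95% interval over 5 mice, for the 38 members tested, grouped by role; dotted lines mark a 2-fold change. The intervals of Cdkn1a, Cdkn2b, Ccnd3 and Cdk1 lie off 0, and the mitotic genes have the widest intervals, with a median width of 1.52.

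Among the G1 cyclins and kinases, Ccnd1, encoding cyclin D1, was the most abundant. Per kilobase of exon, Ccnd1 had the highest level of all 39 genes, 72.3 ± 25 CPM per kb in the control eyes and 63.4 ± 16.1 in the Nrf2 eyes (mean ± SD, n = 5), followed in the controls by Cdk4, its partner kinase, at 31.5 ± 3.35. Cdk4 was also the steadiest member between mice, with a highest-to-lowest ratio of 1.33 among control eyes, and its log2 difference was -0.002, with an interval of -0.24 to 0.23, and a sign that turned under some alternatives. Cdk4 shares 641 exon bases with Tspan31 on the opposite strand, which had 32663 counts over all libraries and was not called, so reads from the pair cannot be told apart there. The E-type cyclins, which act with Cdk2 at the start of replication, were scarce, Ccne1 at 1.45 and Ccne2 at 1.86 CPM per kb in controls. Cdk6 was lower still, at 1.22 CPM per kb. Ccne2 shares 609 exon bases with Ints8 on the opposite strand, which had 6762 counts over all libraries. Ccnd1 shares 1100 with LTO1, which had 5012 counts and is also on the opposite strand. Neither neighbour was called. For 7 of the 8 genes of this group the limma interval included 0, among them Ccnd1 at -0.16 (-0.40 to 0.09), Ccnd2 at 0.24 (-0.28 to 0.75), Cdk2 at -0.03 (-0.39 to 0.34) and Cdk6 at -0.07 (-0.51 to 0.38).

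The exception was Ccnd3, encoding cyclin D3 (chr17:47505051-47599691, plus strand). It measured 262.3, 186.2, 253.8, 316.4 and 200.5 CPM in the control eyes of mice 1 to 5, and 166.6, 135.9, 212.3, 207.6 and 188.3 CPM in the Nrf2 eyes of the same mice. Every mouse had less in its Nrf2 eye, while the ranges of the groups overlapped. The log2 difference was -0.41 ± 0.11 (SE, n = 5 mice), with an edgeR adjusted p of 0.0892 and a DESeq2 adjusted p of 0.0349. A shared sign in every mouse was found for 20% of all genes tested, both directions counted. Ccnd3 shares 361 exon bases with Bysl on the other strand, and the amplification kit does not keep strand; Bysl had a log2 difference of -0.22 and was not called.

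Among the inhibitors of cyclin-dependent kinases, Cdkn1a and Cdkn2b had the largest positive differences of the set. Cdkn1a encodes p21, a p53-induced inhibitor of several cyclin kinases (chr17:29090976-29100727, plus strand). It measured 62.8, 97.0, 145.3, 58.1 and 156.2 CPM in the control eyes of mice 1 to 5, and 157.2, 179.2, 108.6, 117.7 and 248.6 CPM in the Nrf2 eyes. It was higher in the Nrf2 eye of 4 mice and lower in that of mouse 3. The log2 difference was 0.71 ± 0.30 (SE, n = 5 mice), the interval 0.15 to 1.25, and the adjusted p 0.162 by edgeR and 0.0433 by DESeq2. Without mouse 3 the edgeR difference was 1.04 and passed the threshold.

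Cdkn2b encodes p15, an inhibitor of Cdk4 and Cdk6 (chr4:89306299-89311039, minus strand). It measured 29.5, 37.7, 39.3, 15.4 and 43.4 CPM in the control eyes and 88.0, 79.7, 44.7, 56.7 and 39.4 CPM in the Nrf2 eyes of mice 1 to 5. In 4 mice the Nrf2 eye was higher, and in mouse 5 it was slightly below the control eye. The log2 difference was 0.92 ± 0.39 (SE, n = 5 mice), the interval 0.22 to 1.61, and the adjusted p 0.156 by edgeR and 0.0239 by DESeq2.

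The other inhibitors gave values on both sides of 0. Cdkn1c, encoding p57, had a difference of 0.31 (interval -0.01 to 0.62), Cdkn1b, encoding p27, -0.45 (-0.95 to 0.06), and Cdkn2c, encoding p18, -0.17 (-0.55 to 0.23). Cdkn2a, whose products p16 and p19ARF are widely used as marks of senescent cells, lies beside Cdkn2b, and had 0 to 2 counts per library in both groups. With counts this low it was not tested, and no difference was detectable at this depth. A count of 0 allows a level of up to 0.153 CPM in the control library of mouse 1, counting error alone considered.

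The p53 and retinoblastoma genes themselves were not called. Trp53, which encodes p53, differed by 0.12 (interval -0.23 to 0.48), and Mdm2, its ubiquitin ligase and target, by 0.24 (-0.01 to 0.49), with 4 of 5 mice higher. Rb1, the retinoblastoma gene, differed by -0.08 (-0.53 to 0.36), and E2f1, an activating E2F, by -0.37 (-0.77 to 0.03). Rb1 shares 488 exon bases with Rcbtb2 and 408 with Lpar6 on the opposite strand, neither of which was called.

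Of the 10 replication genes, 9 had differences below 0, with a group median of -0.20, and none was called. The median was -0.08 without mouse 2 or mouse 3, with 4 and 3 genes above 0, and -0.12 without mouse 5, and it lay at -0.28 and -0.27 without mouse 1 or 4. The Mcm2 to Mcm7 genes, which encode the 6 subunits of the replicative helicase, ranged from -0.03 for Mcm2 to -0.26 for Mcm5. Pcna, the sliding clamp of the polymerases, differed by -0.07, with an interval of -0.31 to 0.18. The enzymes that supply nucleotides gave 0.10 for Rrm1, -0.22 for Rrm2 and -0.34 for Tyms, the last with an interval of -0.97 to 0.32. Mcm7 shares 321 exon bases with Ap4m1 and 64 with Cops6, and neither neighbour was called. The direction of this group was not uniform over mice: the median difference of its genes was 0.22 in mouse 1, -0.42 in mouse 2, -0.26 in mouse 3, 0.26 in mouse 4 and -0.47 in mouse 5.

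Mki67, the gene of the Ki-67 proliferation marker (chr7:135689784-135716361, minus strand), was low in every library, at 0.996 ± 0.625 CPM per kb in controls and 0.931 ± 0.486 in Nrf2 eyes. It measured 11.3, 10.2, 6.6, 2.55 and 19.4 CPM in the control eyes of mice 1 to 5, and 17.7, 8.65, 4.89, 6.93 and 8.71 CPM in the Nrf2 eyes. The Nrf2 eye was higher in mice 1 and 4 and lower in mice 2, 3 and 5, and the range of the Nrf2 eyes lay inside that of the control eyes. The log2 difference was 0.03, with an interval of -0.78 to 0.88, so that an increase of this transcript up to 0.88 log2 units lay inside the interval.

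Top2a, the topoisomerase that untangles chromosomes before they separate, followed the same libraries. It measured 9.13, 9.79, 6.89, 3.55 and 25.5 CPM in the control eyes and 19.5, 9.4, 6.98, 6.93 and 12.7 CPM in the Nrf2 eyes of mice 1 to 5. The control eye of mouse 5 was the highest and that of mouse 4 the lowest of all 10 libraries, as for Mki67. The difference of Top2a was 0.20 (-0.52 to 0.92).

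Cdk1, the kinase that drives entry into mitosis (chr10:69335146-69352938, minus strand), did not follow that order. It measured 23.5, 10.8, 18.4, 19.2 and 15.7 CPM in the control eyes and 16.8, 7.79, 15.4, 9.55 and 11.5 CPM in the Nrf2 eyes of mice 1 to 5. All 5 mice had less Cdk1 in the Nrf2 eye, and the groups overlapped. The log2 difference was -0.53 ± 0.13 (SE, n = 5 mice), with an edgeR adjusted p of 0.0938 and a DESeq2 adjusted p of 0.0435. Cdk1 and Ccnd3 were the 2 members lower in all 5 mice, and no member was higher in all 5.

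The remaining mitotic genes had differences near 0 and wide intervals. The mitotic cyclins gave -0.02 for Ccna2 (-0.59 to 0.56), 0.10 for Ccnb1 (-0.66 to 0.84) and -0.06 for Ccnb2 (-0.98 to 0.92). The mitotic kinases gave -0.08 for Aurka (-0.84 to 0.69), -0.17 for Aurkb (-0.87 to 0.57), -0.03 for the checkpoint kinase Bub1 (-1.09 to 1.03) and 0.20 for Plk1 (-0.996 to 1.52). Birc5, encoding survivin, which works with Aurkb at the centromere, gave -0.07 (-1.01 to 0.93). Ccna2 shares 510 exon bases with Exosc9 on the opposite strand, which was not called.

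**Figure D2:**
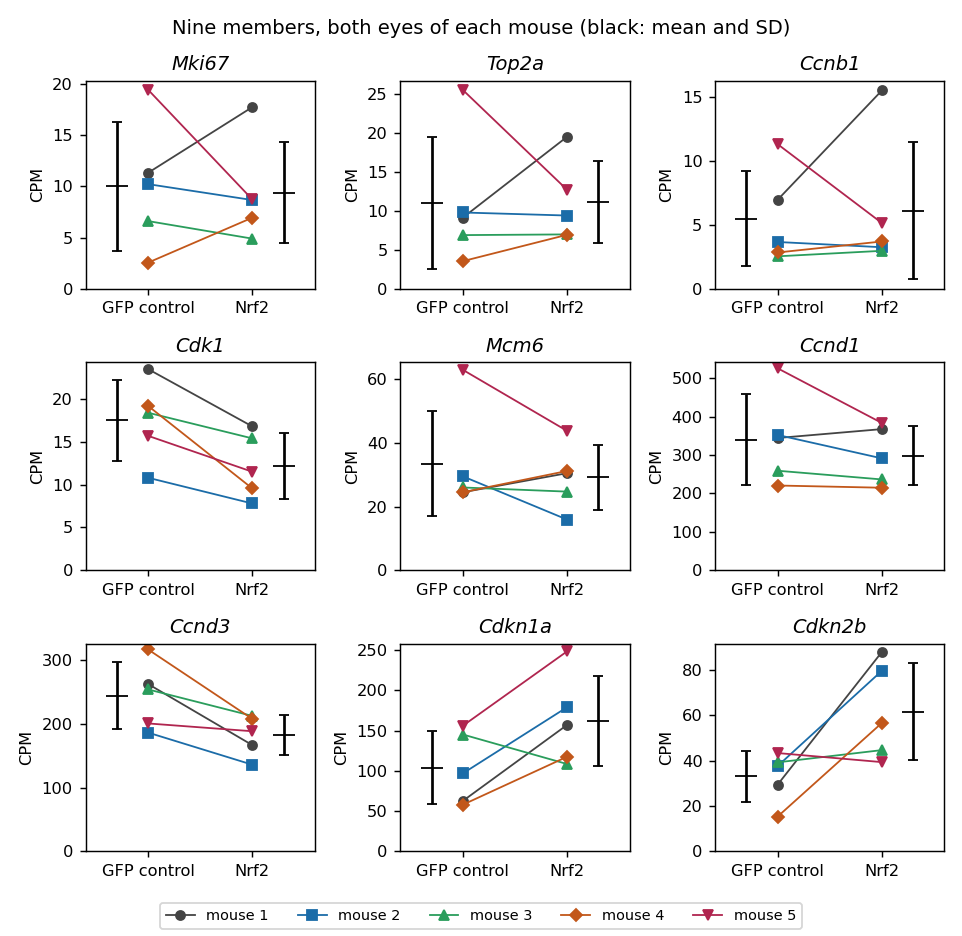
Each panel shows one member in CPM on a vertical axis from 0, with the GFP control eye and the Nrf2 eye of each mouse joined by a line, and black bars for the group mean and SD (n = 5). Lines cross for Mki67, Top2a and Ccnb1, all fall for Cdk1 and Ccnd3, and 4 of 5 rise for Cdkn1a and Cdkn2b.

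Of the 11 mitotic genes 10 varied more between control eyes, by the SD of log2 CPM, than between the groups, the exception being Cdk1. The highest control eye exceeded the lowest by 13.4 times for Plk1, 10.1 times for Birc5, 8.03 times for Ccnb2 and 7.64 times for Mki67, and the median over the 11 mitotic genes was 7.44. The SD of log2 CPM among control eyes had a median of 1.02 in the mitotic genes, 0.57 in the replication genes and 0.35 over all genes tested. In 30 of the 38 members this SD was larger than the size of the fitted group difference, against 70.2% of all genes.

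The same few libraries stood at the ends of the order. The control eye of mouse 5 had the highest level of all 10 libraries in 10 of 10 replication genes and in 6 of 11 mitotic genes. The Nrf2 eye of mouse 1 was the highest Nrf2 eye in 11 of 11 mitotic genes, and the control eye of mouse 4 was the lowest of all 10 libraries in 9 of 11. The median mitotic difference was 0.92 in mouse 1, with 10 of 11 genes higher in the Nrf2 eye, and 0.94 in mouse 4, also with 10 of 11, but -0.24 in mouse 2, -0.42 in mouse 3 and -1.12 in mouse 5, where 0 of 11 were higher. The median of the group accordingly moved between -0.25 without mouse 4 and 0.27 without mouse 5. With the rod marker level of each library as a covariate it was -0.33, with 0 members called by edgeR, and the difference of Mki67 was then -0.33; what part rod RNA had in these levels was not tested.

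**Figure D3:**
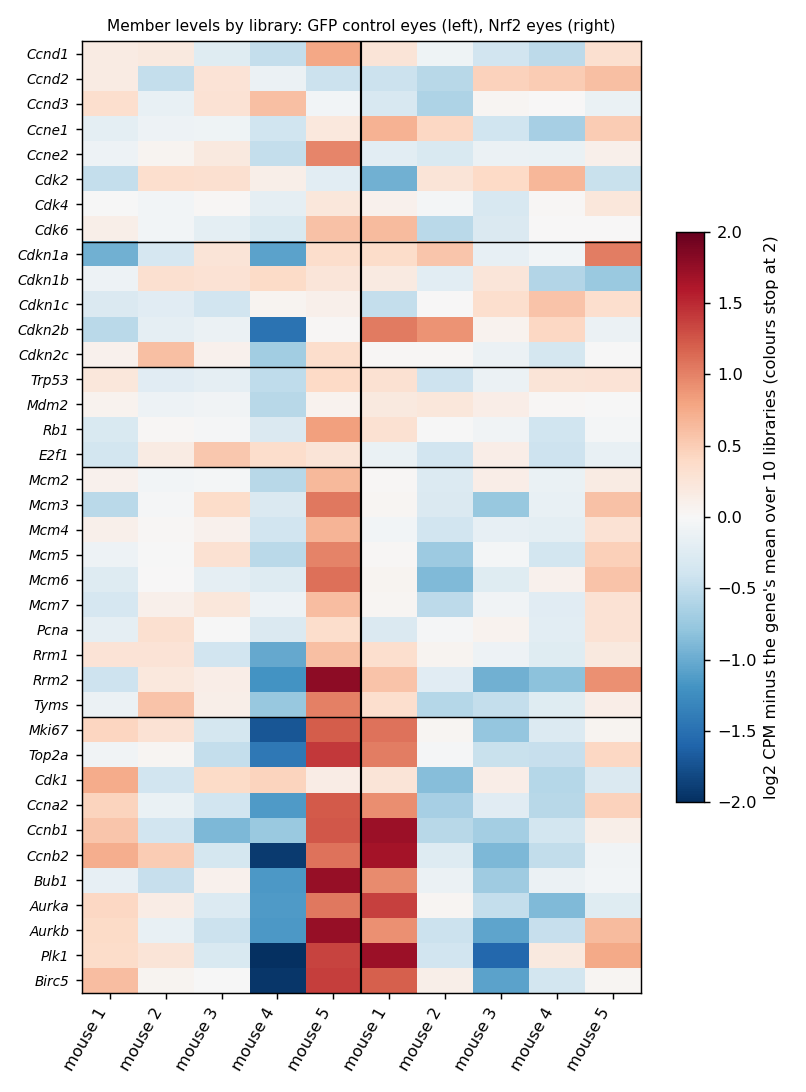
Rows are the 38 members in the order of their roles, columns the 10 libraries, and colour is log2 CPM minus the mean of that gene over the 10 libraries, with the scale ending at 2 on either side. The mitotic rows, apart from Cdk1, are high in the control eye of mouse 5 and the Nrf2 eye of mouse 1 and low in the control eye of mouse 4.

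These mitotic levels were set beside those of microglia, immune cells that can divide, because their markers rose in the Nrf2 eyes. Of 20 microglia markers 16 were called higher, including P2ry12, a receptor of homeostatic microglia, at a mean of 0.727 CPM in control and 45.9 CPM in Nrf2 eyes, and the complement gene C1qa at 4.87 and 163.0 CPM. Csf1r, Itgam, Ptprc and Olfml3 were not called, and Csf1r measured 197.7 CPM in control and 141.8 CPM in Nrf2 eyes. The summed marker level was 432.4 to 553.9 CPM in controls and 821.5 to 2931 CPM in Nrf2 eyes, higher in 5 of 5 mice, and no marker was at 0 in any library. In bulk RNA, more cells of a type and more RNA per cell cannot be told apart.

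The sum of the 11 mitotic genes moved in both directions over the same mice. It was 91.2, 64.3, 58.9, 38.7 and 145.9 CPM in the control eyes of mice 1 to 5, and 136.8, 53.6, 47.8, 48.8 and 73.1 CPM in the Nrf2 eyes. In the Nrf2 eye of mice 1 to 5 the microglia sum was 3.47, 1.89, 2.3, 3.82 and 5.9 times that of the control eye, and the mitotic sum 1.5, 0.835, 0.811, 1.26 and 0.501 times. The mitotic sum was thus higher in mice 1 and 4, whose microglia sums rose more than those of mice 2 and 3, and lowest against its control eye in mouse 5, whose microglia sum rose most. How much of the mitotic RNA came from microglia, RPE or other cells of the eyecup was not tested.

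**Figure D4:**
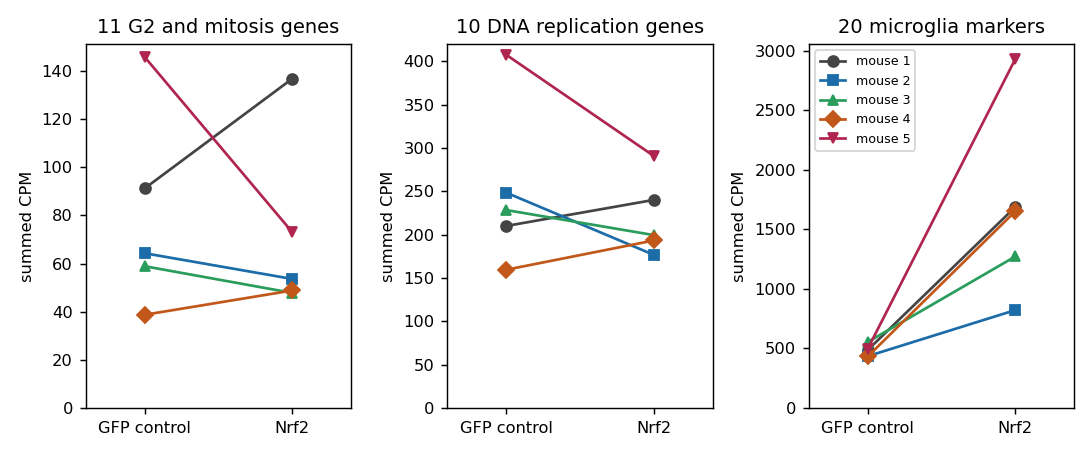
Vertical axes give summed CPM from 0 for the 11 mitotic members, the 10 replication members and the 20 microglia markers, with the control and Nrf2 eye of each mouse joined by a line. The microglia sum rises in all 5 mice, while the mitotic and the replication sum each rise in mice 1 and 4 and fall in mice 2, 3 and 5.

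No further gene of replication or mitosis was called by edgeR. Of 41 other replication genes and 46 other mitosis genes, edgeR called 0, with 3 (7.32%) and 2 (4.35%) at an unadjusted p under 0.05, and limma also called 0; over all genes edgeR called 6.33%, and 19.1% had an unadjusted p under 0.05. DESeq2 called 1, the mitotic kinase gene Melk, which was higher in 5 of 5 mice (log2 difference 1.15, interval 0.51 to 1.80, edgeR adjusted p 0.0657). Of 14 other regulators of G1, edgeR and limma called 0, with 1 (7.14%) at an unadjusted p under 0.05 and 1 called by DESeq2. Median differences of the lists were -0.10 for replication, 0.01 for mitosis and -0.05 for G1, and they moved with single mice. Leaving out 1 mouse gave -0.13 (without mouse 1) to -0.03 (without mouse 3) for replication, -0.13 (without mouse 1) to 0.20 (without mouse 5) for mitosis, and -0.09 (without mouse 1) to 0.03 (without mouse 3) for G1.

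Genes known as direct targets of p53 included several that rose. Of 26 targets outside the 39 members, 7 were called higher and 0 lower, or 26.9% higher against 3.6% of all genes. At an unadjusted p under 0.05 there were 13, or 50% against 19.1% of all genes, 11 higher and 2 lower. The list was chosen with results of these data known, so this share is a description. The median difference of the list was 0.38, with 19 genes above 0.

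Among these, Plk3, a stress-responsive kinase, measured 6.56, 5.29, 9.57, 9.29 and 6.66 CPM in the control eyes and 23.5, 24.1, 24.1, 33.3 and 40.4 CPM in the Nrf2 eyes of mice 1 to 5. The groups did not overlap, and the log2 difference was 1.96 ± 0.21 (SE, n = 5 mice; edgeR adjusted p 0.00226). Ccng1, encoding cyclin G1, which takes part in feedback on p53, rose from 100.1 to 141.4 CPM in the control eyes to 180.1 to 232.7 CPM in the Nrf2 eyes, a log2 difference of 0.84 (adjusted p 0.00514). Gdf15, a secreted stress cytokine, was scarce in the controls at 0.571 to 1.83 CPM and reached 3.97 to 7.98 CPM in the Nrf2 eyes, a log2 difference of 2.46 (adjusted p 0.00759).

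The other called targets are linked to cell death. Aen, an apoptosis-enhancing nuclease, rose by 0.88 (adjusted p 0.00892) and Bax, which opens the mitochondrial membrane in apoptosis, by 0.63 (adjusted p 0.0107), and in neither did the groups overlap. Fas, a death receptor, rose by 1.08 with an adjusted p of 0.0498, a call lost when any single mouse was left out. Eda2r, a receptor of the TNF receptor family, had 4, 0, 3, 4 and 0 counts in the control libraries and 16, 14, 32, 24 and 21 counts in the Nrf2 libraries (adjusted p 0.0381), so that its fitted fold change depends on the prior count and is not given. Its call was lost without mouse 2, 3, 4 or 5, and without mouse 1 it did not pass the filter on low counts and was not tested.

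Other p53 targets gave lower values. Ei24 and Polk were lower in 5 of 5 mice, at -0.27 and -0.45, and neither was called, with adjusted p of 0.117 and 0.128.

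**Figure D5:**
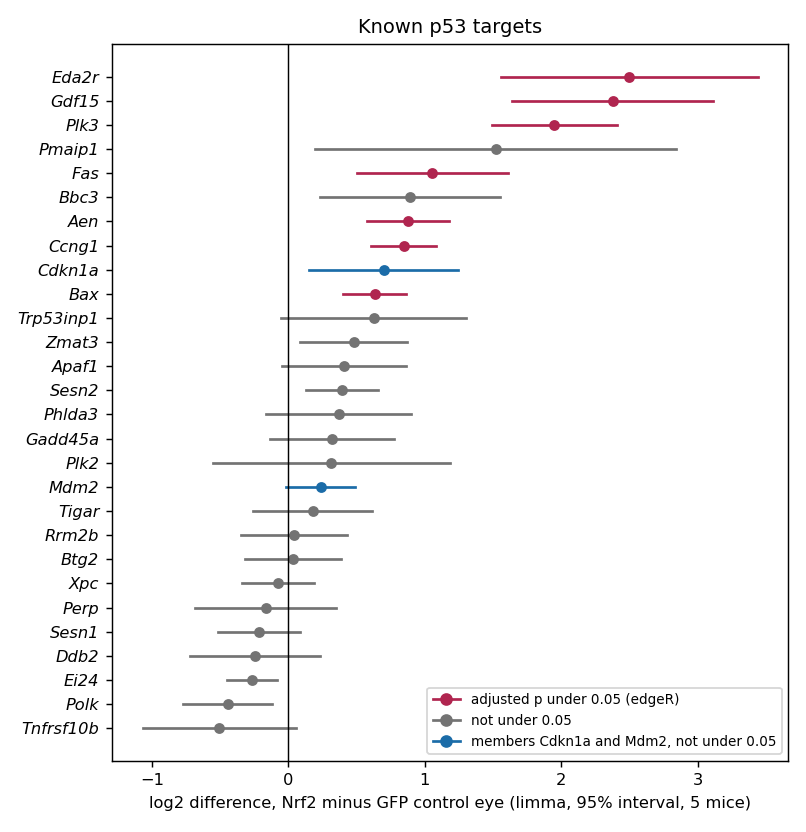
The horizontal axis is the limma log2 difference between Nrf2 and GFP control eyes with its 95% interval over 5 mice, for 26 p53 targets and the members Cdkn1a and Mdm2, with colour for the edgeR call. The 7 called genes all lie above 0, and the intervals of Ei24 and Polk lie below 0.

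The lists on arrest and growth gave 1 or 2 calls each. Of 18 pocket protein, E2F and DREAM complex genes, edgeR called 1 higher (5.56%, against 3.6% of all genes), E2f6, an E2F that represses its targets, which rose in 5 of 5 mice by 1.17 ± 0.07 (SE, n = 5 mice; adjusted p 0.000979), from 52.9 to 68.8 CPM in the control eyes to 125.8 to 158.9 CPM in the Nrf2 eyes. Of 10 immediate early growth genes 1 was called (10% against the same 3.6%), the AP-1 gene Fosl1, at 0.29 to 1.1 CPM in the controls and 1.52 to 18.5 CPM in the Nrf2 eyes (log2 difference 2.84, adjusted p 0.00925). Its call was lost with the rod marker level as a covariate. Of 11 tested genes often linked to senescence 2 were called (18.2%), both secreted proteins: Igfbp3, a binding protein for insulin-like growth factors, at 2.94 (adjusted p 0.00333) and the matrix protease Mmp3 at 3.81 (adjusted p 0.00782). Mmp3 and Fosl1 were scarce in the control libraries, with 3 to 26 and 4 to 29 counts, and Fosl1 overlaps Ccdc85b, which was not called.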

How the data were processed

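RPE RNA from 10 eyes was amplified from polyadenylated RNA with a low-input kit, and the libraries were sequenced in a pair of runs, whose libraries are not named in the sources used here. According to the study's methods, reads were aligned with STAR to mm10 with Ensembl transcripts and the authors counted them per gene with featureCounts, and Salmon (0.8.2 in the submitters' processing notes) was run in parallel; which of these made the table, and the strand setting, are not given in the sources used here. The deposited counts are whole numbers per gene with no normalization, and 0 columns belonged to other samples. Both eyes of a mouse share the individual number in the labels.

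Genes were filtered by edgeR's filterByExpr, which left 16362 genes, and went into edgeR 4.0.16 under R 4.3.3 (quasi-likelihood test, TMM scaling, mouse as block, Benjamini-Hochberg threshold 0.05). Standard errors come from the differences between the eyes of a mouse in log2 CPM (prior count 2), as their SD over the root of the number of mice, and the 95% intervals came from limma 3.58.1 with the same block, an alternative added after seeing the data. DESeq2 1.42.0 was an alternative. Deviations of the eyes of one mouse from their group means correlated at r = 0.186 to 0.707, and those of different mice at a median of -0.081, over all genes tested. Symbols, exon lengths and positions came from GENCODE M21 (GRCm38), which held 99.1% of the gene IDs, and levels between genes were compared only per kilobase of exon. The depth, 12298404 to 27310638 counts, sets a floor of 3 counts per library, which covers counting error only.

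The members and the gene lists were chosen with earlier results of these data known. All 39 members were to be named, and, of the pathway lists, called genes in order of the size of their difference, at most 6 a direction and list. Bax, the p53 target beyond that number, and Melk, Orc1, Ei24 and Polk were named after their values were seen. The methods were tested on simulated data.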

Additional observations from a re-analysis of the deposited data

Results flagged for a closer look

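Among the 38 members tested and the 11 called pathway genes, 98 groups of 5 libraries were checked for a single library far from the others, and 5 stood apart, against 4.9 that chance alone gives at about 1 in 20 groups. The values are log2 CPM. Mdm2 was low in the control eye of mouse 4, at 5.51 against 5.96 to 6.14 in the other control eyes. Mcm6 was high in the control eye of mouse 5, at 5.98 against 4.62 to 4.89. Bax was high in the control eye of mouse 4, at 5.09 against 4.70 to 4.79. In the Nrf2 eyes, Gdf15 was low in mouse 1, at 2.02 against 2.87 to 3.01, and E2f6 was high in mouse 3, at 7.31 against 6.98 to 7.03.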

How the results depend on the processing

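The count of 0 called members was unchanged without the mouse block, with RLE size factors, with every gene kept whatever its counts, with a required mean of 50 counts, with libraries thinned to the smallest, with rod markers as a covariate, with the null set at 1.5-fold, and with limma. DESeq2 called 4 members, 2 higher and 2 lower, and leaving out 1 mouse gave 0 to 1 called and 0 to 1 higher, the 1 being Cdkn1a without mouse 3. The eyes are paired by mouse: without the replicate block 755 genes in all were called, with 0 members and 6 p53 targets, Fas being lost, and no other call changed among the named genes.

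Over all genes the count was 1808 with DESeq2, 497 with the rod covariate, 443 with the null set at 1.5-fold, and 584 to 857 with 1 mouse left out (584 to 683 without mouse 2, 4 or 5). DESeq2 called 1 further mitosis gene, 1 further G1 regulator, 2 immediate early genes and 3 senescence-linked genes; without the low-count filter there were 1 and 2 of the first and last; the rod covariate left 0 immediate early genes, with the calls of Fosl1, Fas and Eda2r lost, and leaving out 1 mouse gave 1 to 3, the 3 without mouse 3. The null at 1.5-fold left 2 p53 targets called. Causes of these changes were not tested.

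Signs turned for log2 differences near 0 and for some larger ones, such as -0.22 for Mcm3 and Rrm2 and 0.20 for Plk1 and Top2a. Without the block, Cdk2 became 0.06, Mki67 -0.09 and Cdk4 0.004. Cdk4 was also above 0, at 0.005 to 0.006, with DESeq2, RLE size factors and the required mean of 50 counts. With the rod covariate, Mki67 became -0.33, Plk1 -0.27, Rrm1 -0.09 and Trp53 -0.05. In thinned libraries Aurka became 0.006, Bub1 0.01, Ccna2 0.02 and Ccnb2 0.04. With 1 mouse left out, the ranges that crossed 0 were -0.14 to 0.12 for Cdk2, -0.02 to 0.15 for Cdk4, -0.004 to 0.23 for Trp53, -0.18 to 0.07 for Cdk6, -0.23 to 0.10 for Rb1, -0.11 to 0.08 for Mcm2, -0.39 to 0.06 for Mcm3, -0.26 to 0.05 for Mcm6, -0.07 to 0.04 for Pcna, -0.04 to 0.22 for Rrm1, -0.49 to 0.06 for Rrm2, -0.26 to 0.33 for Mki67, -0.01 to 0.50 for Top2a, -0.13 to 0.17 for Ccna2, -0.15 to 0.41 for Ccnb1, -0.35 to 0.23 for Ccnb2, -0.32 to 0.42 for Bub1, -0.32 to 0.23 for Aurka, -0.33 to 0.08 for Aurkb, -0.23 to 0.63 for Plk1 and -0.40 to 0.27 for Birc5. Cdkn1a, Cdkn2b, Cdk1 and Ccnd3 kept their signs under all of these alternatives, as did the other members not listed here.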
